A study of Mus musculus with 2 samples.

Results

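The genes described here encode 9 chemokine receptors of regulatory T cells (Treg), the CD4 T cells that restrain immune responses under the transcription factor Foxp3: Ccr4, Ccr6, Ccr7, Ccr8, Ccr9, Ccr10, Cxcr3, Cxcr4 and Cxcr5. They were taken by name as receptors that guide lymphocytes to particular tissues, and every probe set that the platform annotation pairs with exactly 1 of these symbols was used. This gave 13 probe sets of the 45101 on the array, or 9 of 18193 genes. The cells came from the spleen and lymph nodes of 6 to 8 week old females, were isolated by fluorescence-activated sorting, and had their RNA read on Affymetrix arrays. Both genotypes carried Cre recombinase at a Foxp3 allele, written Foxp3 Cre/wtS in the labels of both samples. They differed at Stat3, which was fl/wt (1 floxed allele) in the control sample and fl/fl (both alleles floxed) in the other. There was 1 array per genotype. Cre is driven from the X-linked Foxp3 gene, so in heterozygous females a Treg that uses the other X lacks it, and nothing in the labels tells if Cre-bearing cells were selected or how many mice were pooled.

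Chemokine receptors are G protein-coupled receptors with a membrane-spanning helix bundle. A ligand made by stromal, epithelial or myeloid cells of a tissue activates the inhibitory G protein in the T cell, which then moves along the ligand gradient and strengthens its integrin adhesion. The set of receptors a Treg carries helps to decide where it goes: Ccr7 and Cxcr5 guide cells within lymphoid organs, Ccr9 and Ccr6 towards gut and mucosal surfaces, Ccr4, Ccr8 and Ccr10 towards skin, Cxcr4 towards bone marrow and Cxcr3 towards tissue under an interferon-gamma response. Stat3, the gene targeted in this study, transmits signals of cytokines such as IL-6 and IL-10. In Th17 cells, whose differentiation needs Stat3, Ccr6 is a characteristic receptor.

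The promoter of Ccr6 is shown because it was the only member promoter that held the letters bound by Stat factors. The motif TTCNNNGAA, which reads the same on both strands, was searched in RefSeq windows of build GRCm38.p6 that run from 250 bases before to 50 bases after a transcription start. Windows were given for 6 of the 9 receptors, 7 windows in all, and not for Ccr7, Ccr10 and Cxcr5. Only 1 of the 7 windows held the motif, the first of the pair for Ccr6, and it did so at 2 places that do not overlap. Among all 32851 windows, 8.30% held the motif at least once and 0.457% at 2 or more places. The Ccr6 window lies at chr17:8235793-8236092 on the plus strand, and capitals mark the motif, whose first bases lie 157 and 120 bases before the start:
Ccr6 promoter: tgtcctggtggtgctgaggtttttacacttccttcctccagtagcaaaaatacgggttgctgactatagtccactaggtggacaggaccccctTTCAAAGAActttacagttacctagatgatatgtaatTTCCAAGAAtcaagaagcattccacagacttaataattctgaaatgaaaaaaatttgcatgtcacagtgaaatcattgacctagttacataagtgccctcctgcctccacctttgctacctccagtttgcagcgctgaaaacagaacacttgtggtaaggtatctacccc
A match is a description of these letters and does not show that a factor binds there. The level of Ccr6, in the next paragraphs, differed by -0.069 between the genotypes.

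Of the 9 receptors, 8 reached log2 5 with both genotypes, the level taken here as detected, and Ccr4 did not. The values are log2 probe set signals from GCRMA, a method that subtracts a background estimated from probe sequence. In falling order in the fl/wt array, the receptors were Cxcr3, Ccr7, Ccr6, Ccr9, Cxcr4, Cxcr5, Ccr8 and Ccr10, and in the fl/fl array the order was the same but for Ccr6 and Ccr9, which changed places. Probe sets differ in how well they bind, so this is an order of signals and not of transcript numbers. For the 4227 genes with at least 2 probe sets detected in both arrays, the brightest 2 lay a median of 1.497 apart in log2 level. Of the 14 gaps between neighbours in the order over both arrays, 1 was wider than that, between Cxcr5 and Ccr8 in the fl/wt array (1.61). The order of close neighbours, such as Ccr6 and Ccr9 with gaps of 0.041 and 0.057, therefore has no support beyond these probe sets.

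**Figure D1:**
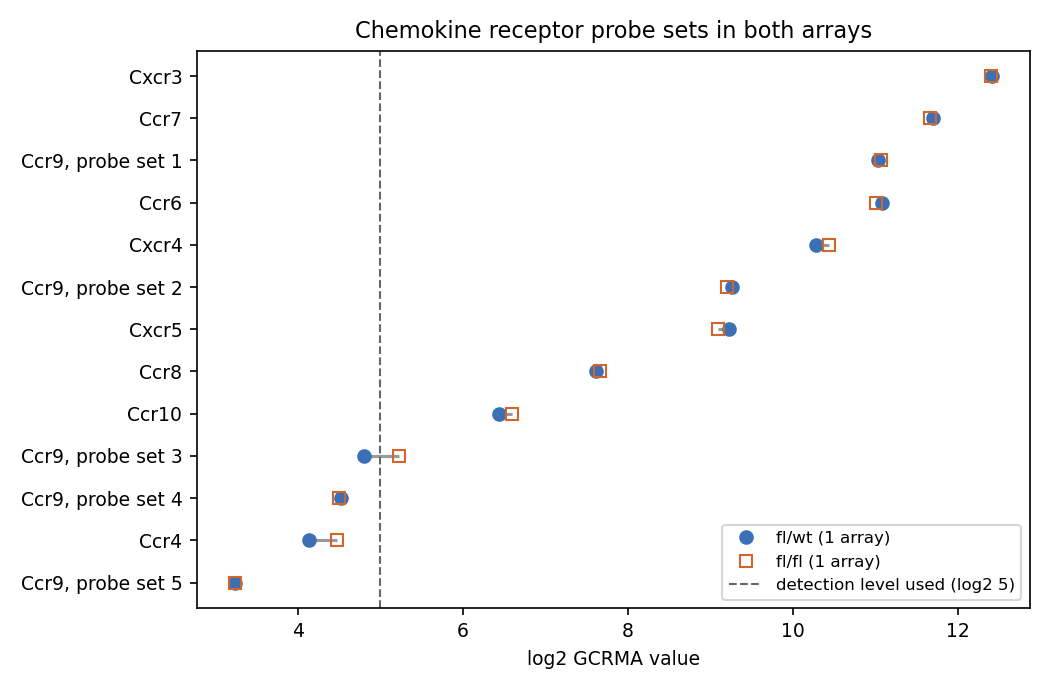
Log2 GCRMA value (horizontal axis) of each of the 13 chemokine receptor probe sets in the fl/wt array (filled circle) and the fl/fl array (open square), 1 array each, with the detection level of log2 5 dashed. Cxcr3 is the brightest at 12.41 and 12.40, Ccr4 lies under the detection level in both arrays, and the 5 probe sets of Ccr9 spread from under log2 4 to over log2 11.

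The receptor with the highest signal was Cxcr3, which binds the interferon-induced ligands Cxcl9, Cxcl10 and Cxcl11. Its single probe set, 1449925_at, read 12.41 (fl/wt) and 12.40 (fl/fl), above 83.8% of the 9773 detected genes. The difference, fl/fl minus fl/wt throughout, was -0.014. It lay inside the central 95% of differences of the 2524 genes with a mean level from log2 11 to 13, which ran from -0.12 to 0.12. That scatter is between genes of these 2 arrays and is not a replicate error.

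Of the lymphoid receptors, Ccr7 came next in signal and Cxcr5 was sixth in both arrays. Ccr7 takes naive and central T cells to the T zone of lymph nodes along Ccl19 and Ccl21, and its probe set 1423466_at read 11.70 (fl/wt) and 11.67 (fl/fl), a difference of -0.029. Cxcr5 takes cells into B cell follicles, where Cxcl13 is made, and is carried by the follicular regulatory subset. Its probe set 1422003_at read 9.23 (fl/wt) and 9.09 (fl/fl), a difference of -0.14. Both lymphoid receptors were lower in fl/fl, and both lay inside the central 95% of their level bands. For Ccr7 this was the band of Cxcr3, and for Cxcr5 the 3234 genes from log2 9 to 11, with limits of -0.19 and 0.17.

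The mucosal receptors were close to each other in signal. Ccr6, the receptor for Ccl20, was read by 1450357_a_at at 11.08 (fl/wt) and 11.01 (fl/fl), a difference of -0.069 or 1.05-fold lower. Ccr9, which takes T cells to the small intestine along Ccl25, had 5 probe sets that did not give 1 picture. The brightest, 1427419_x_at, read 11.04 and 11.07, a difference of 0.030. The next, 1421920_a_at, read 9.26 and 9.20, a difference of -0.062 in the opposite direction. The third, 1421919_a_at, read 4.81 (fl/wt) and 5.23 (fl/fl), so that it crossed the detection level and its difference of at least 0.23 is a lower bound. The other two, 1436065_at (4.53 and 4.50) and 1442758_at (3.24 and 3.24), were not detected. The suffix _x_at of the brightest probe set marks probes that can match other transcripts, so its level may include them. The Ccr6 probe set ends in _a_at and not in _x_at. When all probe sets of shared suffix, here any ending in _x_at, _s_at or _a_at, were left out, no Ccr9 or Ccr6 probe set was detected.

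Cxcr4, the receptor for Cxcl12 that holds cells in the bone marrow, had the largest difference of the 8 detected receptors when each was read by its brightest probe set, except under quantile normalisation, where Ccr10 (0.170) was ahead of it (0.169). Its probe set 1448710_at read 10.28 (fl/wt) and 10.44 (fl/fl), a difference of 0.16 or 1.12-fold higher. This was just inside the central 95% of its level band, whose upper limit was 0.17, and 12.2% of the genes in that band differed by 1.1-fold or more in either direction.

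The skin receptors had the lowest signals. Ccr8, a marker of Treg in skin and other tissues, read 7.62 (fl/wt) and 7.66 (fl/fl) with 1422291_at, a difference of 0.041. Ccr10, which binds Ccl27a and Ccl28 of skin and mucosal epithelium, read 6.44 and 6.59 with 1421420_at, a difference of 0.15 or 1.11-fold higher. In the level band of Ccr10, from log2 5 to 7, the central 95% of 931 genes ran from -0.62 to 0.47 and 46.7% differed by 1.1-fold or more, so a difference of this size was common there. Ccr4, the receptor for Ccl17 and Ccl22, read 4.14 (fl/wt) and 4.48 (fl/fl) with 1421655_a_at. Both values were under log2 5, where values have no order, and a low signal of 1 probe set does not show that the transcript was absent.

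Past 1.1-fold, a small difference used only to describe these arrays, 2 of the 8 detected receptors (Cxcr4 and Ccr10) were higher in fl/fl, against 7.77% of all detected genes. On the lower side 1 of 8 passed (Cxcr5), against 9.09%. Past 1.5-fold there was no receptor, against 0.246% of genes higher and 0.399% lower. Over the 8 detected receptors 4 were higher and 4 lower, and the median difference was 0.0077, beside -0.0045 over all detected genes. The median size of the difference, without its sign, was 0.055 for the receptors and 0.053 for all genes. Each of the 8 lay inside the central 95% of its level band. With 1 array per genotype no test or error can be given. The Cxcr5 count depends on the scaling, since quantile normalisation of the arrays gave -0.13, short of 1.1-fold. With 32 added on the linear scale, Cxcr5 (-0.13) and Ccr10 (0.11) were short of it.

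**Figure D2:**
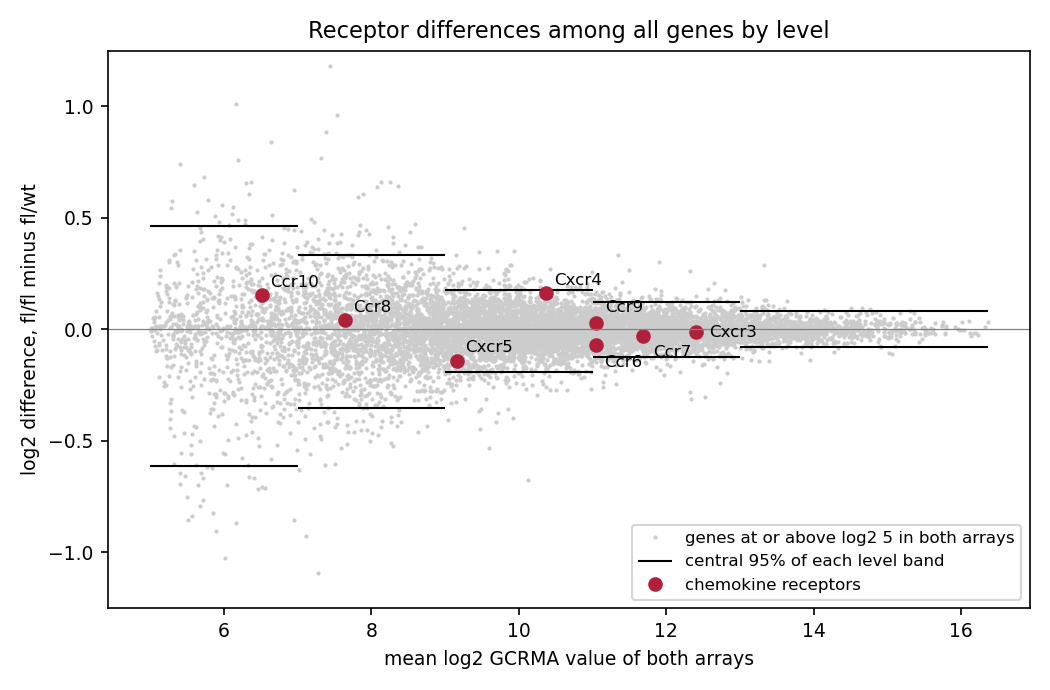
Difference between the arrays (fl/fl minus fl/wt, log2, vertical axis) against mean log2 level (horizontal axis) for each gene detected in both arrays (grey) and the 8 detected chemokine receptors (red), with the central 95% of each level band as black lines. All 8 receptors lie between the lines, Cxcr4 (0.16) nearest to the upper one.

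The receptors were set beside the 15 other chemokine receptors of the list, of which 13 had a probe set of a single gene and 6 were detected. Cxcr6, a receptor of effector and tissue T cells, read 9.42 (fl/wt) and 9.41 (fl/fl), and Ccr2, which binds inflammatory monocyte chemokines, 9.29 and 9.31. Ccrl2, which presents chemerin, differed by -0.044, Ccr3, known from eosinophils, by 0.027 and Cx3cr1, the receptor for fractalkine, by 0.023. Ackr4, a scavenging receptor for Ccr7 and Ccr9 ligands, had the largest difference, -0.15, and its other detected probe set differed by 0.14 in the opposite direction. Of these 6, 3 were higher and 3 lower, and the median difference was 0.0056. Ccr1, Ccr1l1, Cxcr2, Xcr1, Ackr1, Ackr2 and Ackr3 were under log2 5 in both arrays. In the gene order of RefSeq, 4 of the 9 receptors lie on chromosome 9, and genes such as Cxcr6, Xcr1, Ccr1, Ccr1l1, Ccr3 and Ccr2 lie within 10 protein-coding genes of Ccr9. Ccr8 lies next to Cx3cr1. Within these neighbourhoods levels were uneven: Ccr9, Cxcr6, Ccr2 and Ccr3 were detected, while Ccr1, Ccr1l1 and Xcr1 were not.

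Ligands of the 9 receptors were read in the same RNA. Of 15 listed ligands 13 had a probe set of a single gene and 8 were detected in at least 1 array, of which 2 were higher in fl/fl and 6 lower, and the median difference was -0.078. Past 1.1-fold there were 3 lower and 0 higher, against 9.09% and 7.77% of all detected genes. The detected ligands were dim, with a median level of 6.73 (fl/wt) and 6.67 (fl/fl). Of all genes from log2 5 to 7, 24.2% were past 1.1-fold lower and 22.6% higher. From log2 7 to 9 the shares were 18.3% and 16.6%. With a floor of log2 4, 5 ligands were lower and 1 higher, against 9.76% and 8.68% of all genes in that setting. Ccl22, the ligand of Ccr4, which dendritic cells and macrophages make, was dim and had the largest difference of the ligands detected in both arrays. It read 5.75 (fl/wt) and 5.05 (fl/fl), a difference of -0.69 or 1.62-fold lower, outside the central 95% of its level band (-0.62 to 0.47), and -0.40 with 32 added on the linear scale. Ccl25, the ligand of Ccr9, differed by -0.19 (7.04 and 6.86) and Cxcl9, a ligand of Cxcr3, by -0.18 (8.42 and 8.24). Both lay inside the central 95% of their level bands, whose lower limits were -0.62 and -0.35.

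The other detected ligands were closer between the arrays or crossed the detection level. Cxcl10, a second Cxcr3 ligand, had the highest ligand signal, at 9.96 and 9.89. Ccl27a, the Ccr10 ligand, differed by -0.092 and Ccl20, the Ccr6 ligand, by 0.070. Ccl8, a ligand of Ccr8 in the mouse, was under log2 5 in fl/wt (3.95) and at 5.06 in fl/fl, at least 1.04-fold higher. Cxcl13, the Cxcr5 ligand, read 5.02 (fl/wt) and, below detection, 3.72 (fl/fl), at least 1.02-fold lower. These bounds follow from the floor. Ccl8 differed by 1.06 and Cxcl13 by -1.02 when log2 4 was used instead. The remaining ligands Ccl17, Ccl1, Ccl28, Cxcl11 and Cxcl12 were under log2 5 in both arrays, and Ccl19 and Ccl21a, whose probe sets match several genes, were not used here.

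**Figure D3:**
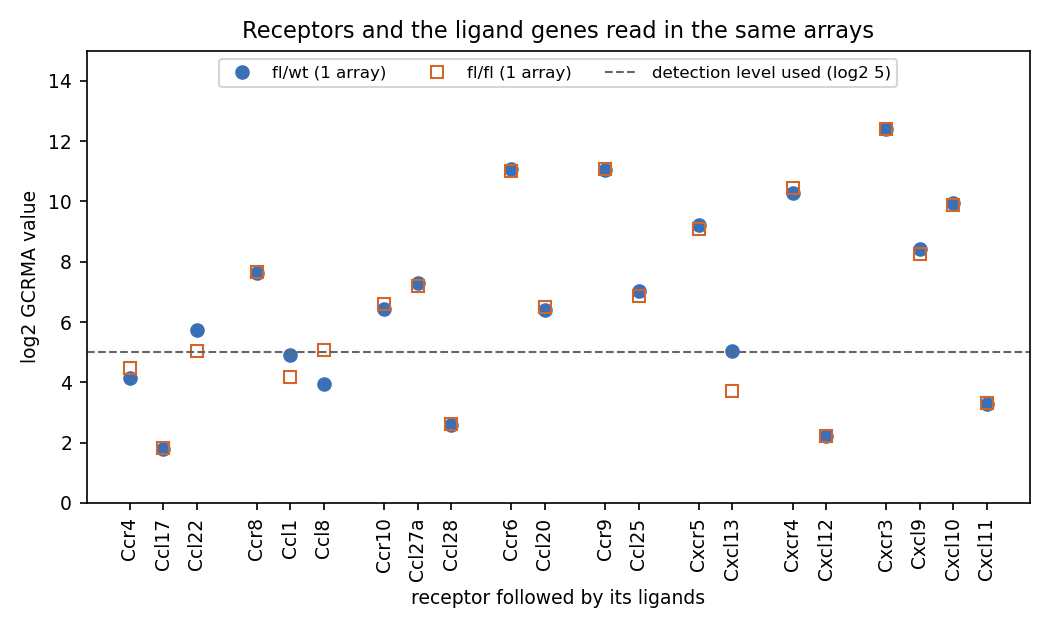
Log2 GCRMA value (vertical axis) of 8 receptors, each followed by its ligand genes, in the fl/wt (filled circle) and fl/fl (open square) arrays. There was 1 array each, and the detection level of log2 5 is dashed. Ccr7, whose ligand genes were not used, is left out, and Ccr4, under log2 5 in both arrays, is drawn. Ccl22, Ccl8 and Cxcl13 show the widest gaps between the arrays among the detected ligands, each with at least 1 value near log2 5. Values of the detected receptors nearly coincide, while Ccr4 read 4.14 (fl/wt) and 4.48 (fl/fl).

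Genes that carry or brake the receptor signal were detected almost throughout. Of 39 listed genes 38 had a probe set of a single gene and 37 were detected, of which 16 were higher and 21 lower, and the median difference was -0.0087. Past 1.1-fold, 2 were higher and 3 lower, or 13.5% against 16.9% of all detected genes in either direction. The list was bright, with a median level of 13.25 (fl/wt) and 13.23 (fl/fl), where few genes passed. The share was 0.4% of all genes from log2 13 up and 2.77% from 11 to 13. The listed genes past 1.1-fold had mean levels under log2 11. There the share was 12.2% from 9 to 11, 34.9% from 7 to 9 and 46.7% from 5 to 7. Gnai2, the inhibitory G protein chain that couples these receptors in lymphocytes, read 13.75 (fl/wt) and 13.74 (fl/fl). Grk5, a kinase that desensitises receptors, differed by 0.22 (6.25 and 6.47), Pik3cg, the PI 3-kinase subunit activated by G proteins, by 0.19, Apbb1ip, an adaptor of Rap1 signalling, by -0.19 and Rasgrp2, an activator of Rap1, by -0.16. The other probe sets of Pik3cg and Apbb1ip went the opposite way, by -0.096 and 0.0074. The difference of Rasgrp2 was -0.033 without probe sets of shared suffix. Some dimmer probe sets of the list differed more, by -0.66 for Elmo1 and -0.44 for Gng2. The brightest probe sets of Elmo1 and Gng2 differed by -0.033 and -0.15.

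Read by their brightest probe sets, other homing molecules differed little apart from Fut7. Of 17 listed, 15 were detected, with 6 higher, 9 lower and a median of -0.0033. Fut7, the fucosyltransferase that builds selectin ligands, read 6.07 (fl/wt) and 5.27 (fl/fl), a difference of -0.79 that was -0.066 with a floor of log2 6. Itga4, the integrin chain paired with Itgb7 for gut homing, differed by -0.125, just past its band limit of -0.124. Its 3 other detected probe sets differed by -0.17 to 0.12. S1pr4 and S1pr1, receptors for sphingosine 1-phosphate of which S1pr1 lets T cells leave lymph nodes, differed by 0.064 and 0.046.

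**Figure D4:**
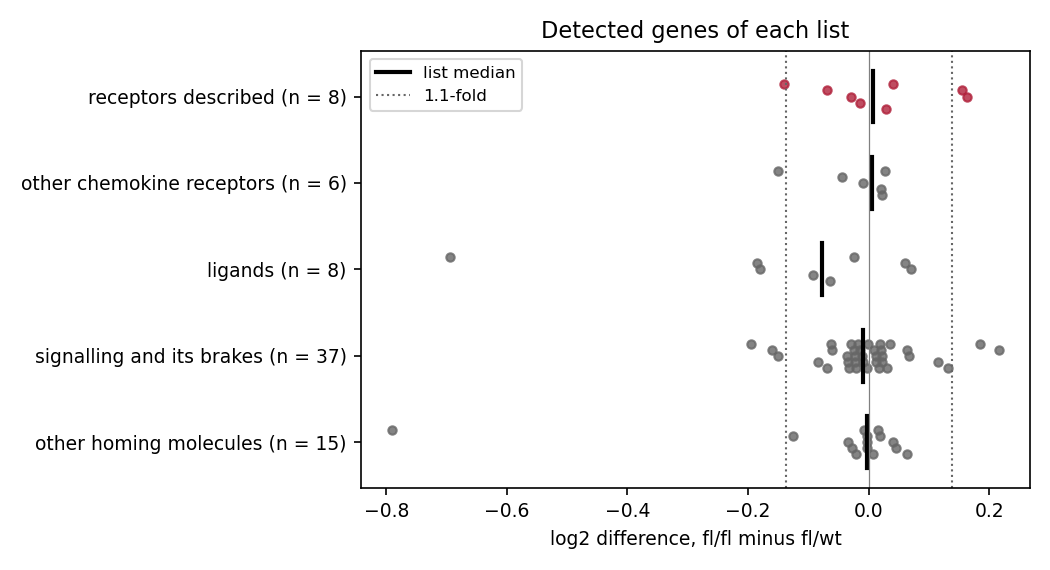
Difference between the arrays (fl/fl minus fl/wt, log2, horizontal axis) for each detected gene of 5 lists, 1 point per gene with the list median as a black bar and 1.1-fold as dotted lines. Values under log2 5 were set to 5 first, so Cxcl13 and Ccl8 are drawn at -0.025 and 0.060. The 9 receptors have 8 detected genes around a median of 0.0077. On this scale Ccl22 (-0.69) and Fut7 (-0.79) lie farthest from 0.

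The sorted population was checked against markers of Treg and of other cells. Of 8 Treg markers 7 were detected, from 11.75 (Nt5e in fl/wt) to 14.91 (Ctla4 in fl/wt), while Foxp3 itself read 4.09 and 3.52, below detection. As for Ccr4, such a low signal does not show that the transcript was absent. B cells also carry Ccr6, Ccr7, Cxcr4 and Cxcr5. Of 8 B cell markers 4 were detected, with a summed level of log2 10.74 (fl/wt) and 10.66 (fl/fl), while Pax5, Cr2 and Fcer2a were under log2 5. By brightest probe set 3 of the 4 were lower in fl/fl, Cd79b (10.34 and 10.26), Ms4a1 (7.48 and 7.15) and Blk (5.31 and 5.15). Higher was 1, Cd79a (7.61 and 7.77). The other Ms4a1 probe set was higher by 0.28. Of 6 markers of myeloid cells, a source of Ccl22 and Cxcl9, 5 were detected with a summed level of 14.86 in both arrays. Itgam was not detected. The brightest were Csf1r (13.99 in fl/wt and 14.00 in fl/fl), Lyz2 (12.59 and 12.52) and Adgre1 (12.04 and 12.09), beside Cxcr3 at 12.41 and 12.40. Of 3 plasma cell markers Jchain alone was detected (10.03 and 10.08), and of 4 dendritic cell markers Itgax alone (6.81 and 7.01). Plasmacytoid dendritic cells also carry Ccr9, and 2 of their 3 markers were detected, Bst2 (11.60 and 11.61) and Ly6d (7.17 and 6.88), with a summed level of log2 11.668 in fl/wt and 11.665 in fl/fl, while Siglech was under log2 5 in both arrays. The part of these cells in the receptor and ligand values was not tested, and in bulk RNA fewer cells of a type and less RNA per cell cannot be told apart. The Stat3 probe sets above log2 5 differed by -0.083 to -0.0083. No label says whether they cover the floxed exons, so the genotype rests on the labels.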

How the data were processed

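Trizol-extracted total RNA was turned into biotinylated cRNA for Affymetrix arrays, per the labels' protocols. For each of 45101 probe sets the authors deposited a log2 value per array (2 arrays, 1 per genotype), made with GCRMA per the submitters' processing notes. Its version, and which arrays were normalised together, is not given in those notes. GCRMA pulls dim probe sets to a low end without order, so values under log2 5 were set to 5 before a difference was taken, and scatter grows towards low levels. The number of arrays limits the precision, and there is no replicate error, p-value or test.

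The platform annotation gave the names: 34945 that are not controls had 1 symbol, 932 had several and 9160 had none. Symbols were updated by Entrez identifier in RefSeq of GRCm38.p6 (34741 matched, 0 changed). The probe set of highest mean stood for its gene, which counted as detected when either array reached log2 5. Level bands were 2 log2 units wide, over genes detected in both arrays. Every probe set of the receptors is given. Every detected ligand and other chemokine receptor is named, and up to 4 genes with the largest difference of each further list. Gnai2, Elmo1, Gng2, Rgs19 and Rhoa were added after their values were seen. The receptors, lists, thresholds and alternatives were chosen with earlier results of these data known. The 1.1-fold threshold has no meaning beyond description. Python 3.11.15, pandas 2.3.3 and, for quantile and loess normalisation, limma 3.58.1 were used, and the calculation was tested on simulated data.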

Additional observations from a re-analysis of the deposited data

How the results depend on the processing

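Counts of receptors past 1.1-fold (2 higher, 1 lower) became 1 and 0 after 32 was added to linear values, against 6.51% and 7.81% of all genes. They became 2 and 0 after quantile normalisation, against 8.13% and 8.69%. At 1.5-fold they were 0 and 0, against 0.246% and 0.399%. With a floor of log2 4, or no floor and no filter, Ccr4 entered with a difference of 0.34 and the higher count was 3. In these settings 8.68% and 6.20% of all genes were past 1.1-fold higher. Without probe sets of shared suffix 6 receptors were left. The median difference of the receptors ran from 0.0075 to 0.030 over 9 alternatives, and none was below 0. Of the 8 detected receptors, Cxcr3 alone changed sign, to 0.0019 with quantile normalisation. Over named genes and receptors, 250 values moved by less than 0.12, the SD between differences of probe sets of 1 gene, and 12 by more. For Cxcl13, the difference was -1.30 and for Ccl8 1.11 with no floor and no filter. The median of ligands was -0.18 with a floor of 4. That of the other chemokine receptors changed sign with a floor of 6 (-0.0096) and with loess (-0.0011), and that of other homing molecules with quantile normalisation (0.00087) and loess (0.0013). As the median of its probe sets, Ackr4 differed by -0.0053, Pik3cg by 0.045 and Cxcr6 by 0.044. Dim signals limit Ccr4, Ccr10 and most ligands. Alternatives for genes other than the 9 receptors were added after the data were seen. No paired analysis was possible because each group has 1 array.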
